A study of Mus musculus with 28 samples.

Results

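The livers of 4 mice with diet-induced nonalcoholic steatohepatitis (NASH) that received the high dose of tropifexor were set against the livers of 4 lean mice, which makes 8 of the 28 samples of the series. They were chosen by their group labels, and the comparison was read across all genes of the authors' deposited table of these groups. The question is which genes stayed or became different from lean liver after treatment. All animals were male C57BL/6 mice about 6 weeks old at the start. The high-dose group (LJN452_high) ate a NASH diet with 40% of calories from fat, 22% fructose by weight and 2% cholesterol by weight for 26 weeks, and then received tropifexor at 0.9 mg/kg orally each day for 4 weeks. The vehicle group on the same diet (VEH_LJN452, 4 mice) is given beside it. The lean group (Normal_control) ate low-fat food, with 10% of its calories from fat and neither fructose nor cholesterol. The lean mice therefore differ from the high-dose mice in both diet and drug, and these cannot be told apart from the lean comparison alone. The labels do not say which group had which dose; 0.1, 0.3 and 0.9 mg/kg were taken as low, mid and high. The titles name the vehicle group, although its treatment field lists tropifexor.

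Tropifexor activates FXR, the nuclear receptor by which liver and intestine sense bile acids. In hepatocytes, FXR raises the small repressor SHP, encoded by Nr0b2, and the pumps that send bile acids out of the cell, and it lowers the enzymes that make bile acids and the carriers that take them up. NASH is a fatty liver with inflammation and scarring, in which macrophages accumulate and stellate cells lay down collagen.

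RNA was sequenced from poly(A) libraries of whole liver. The authors' deposited tables hold 1 FPKM value (fragments scaled to transcript length and library size) per group of 4 animals, and none per animal, so only the authors' Cuffdiff test reflects the spread between animals, and library depth is unknown. A gene was called, and is said to have risen or fallen, when its q (the p adjusted over all tested genes) was under 0.05. Fold changes are log2 values, high dose over lean unless another pair is named. Each error is a standard error (SE) computed from the fold and its test statistic. It was rescaled by a common factor for all genes, taken from the authors' p. For a single gene the SE is therefore approximate and can disagree with the q, as for Gpx2 (fold 7.79, SE 0.932, q = 0.161). Calls rest on q alone. Where a called gene of this comparison is given with no q, its q was 0.000346, the smallest in the table. The deposited FPKM summed to 842395 in the high-dose group and 831735 in the lean group. In whole liver, fewer cells of a type and less RNA per cell cannot be told apart. The named genes Abcg5, Acss2, Ccnd1, Cd74, Clic3, Col18a1, Cyp51, Fcnaos, Fdps, Fgg, G0s2, Glul, Gpx2, Hnf4a, Hsd3b5, Igf1, Lrtm2, Oat, Pcx, Plin4, Plk3, Pnpla3, Rhbg, Slc37a4, Slc51b, Srebf1, Timp1 and Ttr overlap another tested gene in position and are uncertain. Abcb11, Abcb4, Afp, Akr1b7, Akr1d1, Col3a1, Elovl6, Fgf15, H19, Scarb1 and Slco1a1 overlap predicted or clone-named gene models and are uncertain too, as are the close paralogs among the Gst, Mup, Saa, Orm, Serpina1, Cyp4a, H2 and globin genes.

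Of 47719 genes listed, 15443 were tested in high-dose against lean liver. The authors' deposited table called 1879 higher, 12.2% of those tested, and 2343 lower, 15.2%. Among called genes with a finite fold, the median size was 0.85 for the 1855 that rose and 0.74 for the 2338 that fell. The change was at least 2 on the log2 scale in 265 that rose and 197 that fell. It was at least 4 in 64 and 41. The median fold of all tested genes was -0.04.

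The largest rises were led by Ptgds, a prostaglandin D synthase, with 8512 FPKM in high-dose liver and 5.93 FPKM in lean liver, a fold of 10.49 (SE 0.211) in the authors' deposited table. Akr1b7, an aldo-keto reductase known as an FXR target, had 142 FPKM in high-dose liver and 0.468 FPKM in lean liver, a rise of 8.24 (SE 0.238) in the authors' deposited table. Spink1, a trypsin inhibitor, had 23.0 and 0.106 FPKM in the same order, a rise of 7.76 (SE 0.719, q = 0.00308) in the authors' deposited table. The others were the dynein chain Dnah1 (8.38), Wfdc3 (7.83) and Lrtm2 (7.76), all at or below 0.0509 FPKM in lean liver in the authors' deposited table.

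The largest falls were led by Cyp8b1, the sterol 12-alpha-hydroxylase that sets the share of cholic acid among bile acids, with 0.222 FPKM in high-dose liver and 189 FPKM in lean liver. It fell by 9.73 (SE 0.243) in the authors' deposited table. Slco1a1, an organic anion carrier that also takes up bile acids, fell by 8.57 to 0.272 FPKM in high-dose liver, against 104 FPKM in lean liver, by the authors' deposited table. The other folds in the authors' deposited table were -7.41 (SE 1.91, q = 0.017) for the steroid dehydrogenase Hsd3b5, -7.19 for Serpina1e, -6.62 for the urinary protein Mup3 and -6.4 for the receptor Paqr9. Mup3 is the most abundant of these, with 88.4 FPKM in high-dose liver and 8683 FPKM in lean liver.

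To separate what stayed from what became different, the calls were set beside those of vehicle against lean liver, where the authors' deposited table called 1869 of 15484 tested genes higher (12.1%) and 1321 lower (8.53%). Both comparisons share the lean mice, so the sizes of the classes below are descriptions. Whether high-dose and vehicle livers differ is read from their direct comparison, in which the authors' deposited table called 1570 of 15818 tested genes higher (9.93%) and 2445 lower (15.5%) in high-dose liver. The vehicle column of that table was matched to the tropifexor vehicle group by its values, which deviated by a median of 0.00086 (log2) over 11812 genes, against 0.0917 for the OCA vehicle group.

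Over 14739 genes tested in all 3 tables, 676 stayed higher, being called higher than lean in both high-dose and vehicle liver. Their median fold was 1.09 in high-dose liver and 1.07 in vehicle liver, and in the direct comparison 187 were higher, 142 lower and 347 not called in high-dose liver. Another 779 stayed lower, with medians of -0.92 in high-dose liver and -0.68 in vehicle liver; in the direct comparison 240 of them were lower and 39 higher in high-dose liver. By the calls against lean alone, the genes that became different were more numerous. Called in high-dose liver only, 992 were higher and 1401 lower than lean, and the direct comparison called 685 and 817 of these in the same direction. It did not call the other 307 and 584, which are not shown to differ from vehicle liver. On the side of genes called in vehicle liver only, 911 were higher and 399 lower than lean, with high-dose medians of 0.16 and -0.16. Of these, 643 were lower and 222 higher in high-dose than in vehicle liver by the direct comparison. The remaining genes called in both lay on opposite sides of lean: 122 were lower in high-dose and higher in vehicle liver, and 108 were higher in high-dose and lower in vehicle liver.

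**Figure D1:**
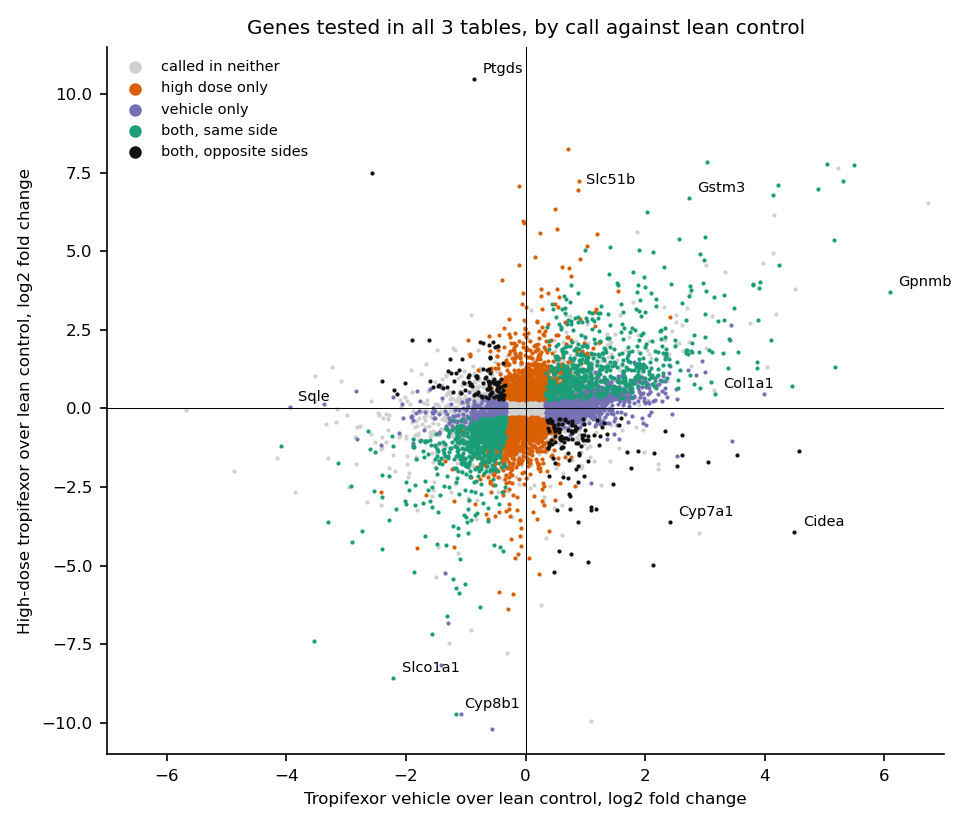
Log2 fold change over lean control in high-dose liver (vertical axis) and vehicle liver (horizontal axis), 1 point per gene tested in all 3 tables, coloured by the calls against lean; 14708 genes are in the plot and 25 lie beyond its axes. Both axes share the lean group, so part of the diagonal is built in. Ptgds stands high on the left side and Cidea and Cyp7a1 low on the right side, where high-dose and vehicle livers lie on opposite sides of lean.

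Among genes that stayed higher, the largest folds were those of Wfdc3, Spink1 and Lrtm2, followed by the glutathione transferase Gsta1 and the RNA-binding protein Rbm24. Gsta1 had 41.9 FPKM in high-dose liver and 0.301 FPKM in lean liver, a rise of 7.12, beside 4.22 in vehicle liver, in the authors' deposited tables. Rbm24 rose by 6.99 (q = 0.0151) in high-dose liver and by 4.89 in vehicle liver in the authors' deposited tables. All 5 were also called higher in high-dose than in vehicle liver. The genes that stayed lower were led by Cyp8b1, Slco1a1, Hsd3b5, Serpina1e and Mup3, and all but Hsd3b5 were further called lower in high-dose than in vehicle liver.

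Among genes that became higher, those with the largest folds were Akr1b7, Fcnaos, the chloride channel protein Clic3, the bile acid exporter subunit Slc51b and the lysophospholipid acyltransferase Lpcat4. Clic3 had 90.3 FPKM in high-dose liver and 0.673 FPKM in lean liver, a rise of 7.07 in the authors' deposited table. Lpcat4 had 64.5 FPKM in high-dose liver and 0.787 FPKM in lean liver, a rise of 6.36 in the authors' deposited table. Among those that became lower, Paqr9 was followed by the nicotinamide methyltransferase Nnmt at -5.89, the glutamate carrier Slc1a2 at -5.83, the secreted protein Fgl1 at -5.28 and the lipoprotein receptor Vldlr at -4.78 in the authors' deposited table. Fgl1 had 4.94 FPKM in high-dose liver and 192 FPKM in lean liver, while Vldlr was low in both, with 0.0436 and 1.19 FPKM in the same order. In vehicle liver these 4 had folds from -0.44 to 0.23 and Paqr9 -0.30, with no call, in the authors' deposited table.

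Genes called in vehicle liver only no longer passed the test against lean at the high dose. Of the rises, the immunoglobulin segment Igkv3-4, Fam83a, the chemokine Ccl7, the lectin Clec4b1 and the acyltransferase Mogat1 had vehicle folds between 2.53 and 3.99 in the authors' deposited table. At the high dose they stood at 0.46, -1.05, 1.16, 1.07 and -1.52 against lean, none called in the authors' deposited table, with q values of 0.0705 to 0.675. Of the falls, 4 of the 5 largest were Sqle, Cyp51 and Nsdhl of cholesterol synthesis and the acetyl-CoA synthetase Acss2, with high-dose folds of 0.04, 0.38, 0.14 and -0.27 in the authors' deposited table. The receptor Adgrf1 was the other, at 0.13 in high-dose and -3.37 in vehicle liver in the authors' deposited tables.

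On opposite sides of lean, Ptgds rose in high-dose liver and fell by 0.86 in vehicle liver, in the authors' deposited tables. The lectin Clec2h, the glutamate receptor Grm8 and the defensin Defb1 had high-dose folds of 2.19, 2.17 and 2.11 and vehicle folds of -1.62, -1.90 and -0.55 in the authors' deposited tables. In the other direction, the flagellin receptor Tlr5 (-5.22), the pseudogene Serpina4-ps1 (-4.97), the thyroid hormone deiodinase Dio1 (-4.88) and the urinary proteins Mup14 (-4.63) and Mup17 (-4.53) fell at the high dose in the authors' deposited table. Their vehicle folds lay between 0.47 and 2.14. Dio1 had 1.30 FPKM in high-dose liver and 38.1 FPKM in lean liver.

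Some bile acid genes lay far from lean liver, in both directions, while others were not called. The counts of this and every later list stand beside the shares over all tested genes. These were 12.2% higher and 15.2% lower at the high dose, and 12.1% and 8.53% in vehicle liver. In the direct comparison they were 9.93% higher and 15.5% lower. Among 19 genes known to be induced by FXR, 17 were tested, of which 8 rose, 6 fell and 3 were not called. Their median was 0.30 beside -0.04 over all tested genes, and in vehicle liver 3 rose and 5 fell. The repressor gene Nr0b2 had 167 FPKM in high-dose liver and 41.7 FPKM in lean liver, a rise of 2.00 (SE 0.112) in the authors' deposited table. Abcb11, the bile salt export pump, had 609 FPKM in high-dose liver and 193 FPKM in lean liver, a rise of 1.65 (SE 0.226) in the authors' deposited table. The phospholipid exporter Abcb4, which protects the bile duct from bile salts, rose by 1.84 in the authors' deposited table. It was also called higher than lean in vehicle liver, at 0.62, and high dose over vehicle was 1.23. Slc51b, a subunit of the exporter that returns bile acids to blood, had 204 FPKM in high-dose liver and 1.67 FPKM in lean liver, a rise of 6.94 (SE 0.263) in the authors' deposited table, whereas its partner Slc51a was not tested, with at most 0.0279 FPKM in either group. In vehicle liver Nr0b2 was lower than lean, at -0.61, and Abcb11 (-0.47) and Slc51b (0.87) were not called in the authors' deposited table.

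Not all genes of the FXR list rose. The fibrinogen chains Fga, Fgb and Fgg fell, with folds of -0.77, -0.67 and -0.97, as did Ugt2b1, a glucuronosyltransferase, with -4.77 in the authors' deposited table. Fgf15, the FXR-induced hormone of the mouse ileum, was listed at 4.61 FPKM in high-dose liver and at 0 in lean liver, with q = 0.0525 and no call in the authors' deposited table. Fabp6, the bile acid binding protein known from ileum and an FXR target, was chosen after its values were seen. It was listed at 14.7 FPKM in high-dose liver and at 0 in lean liver and was called in the authors' deposited table; vehicle liver also listed it at 0.

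FXR binds an inverted repeat of a hexamer spaced by 1 base (IR-1), and the promoter matches among the FXR-induced genes are shown because several of these genes changed. The motif AGGTCANTGACCT, a palindrome read on both strands, was searched in windows of 250 bases before to 50 bases after each gene start, in RefSeq promoters of GRCm38.p6. With up to 2 mismatches in the 12 letters compared, it was found in 1.35% of 27025 genes with a window. Of the 20 genes of the FXR list and Fabp6, 17 had a window, and the motif was found in Abcb11 and Fabp6. Because Fabp6 was added after its values were seen, its matches cannot be set against that share. Within the FXR list itself Abcb11 was the only match. With up to 1 mismatch it was found in Abcb11 alone of those 17, and in 0.0999% of all. The matches are printed 5′ to 3′ on the strand of the gene, with the motif in capitals. The first lies at chr2:69342647-69342699 on the minus strand with 1 mismatch, and the 2 of Fabp6 at chr11:43601752-43601804 and chr11:43601672-43601724 on the minus strand with 2 mismatches each. Such a match is a description of letters and not a binding site.
Abcb11: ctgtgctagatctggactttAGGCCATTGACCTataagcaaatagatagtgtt
Fabp6, upstream match: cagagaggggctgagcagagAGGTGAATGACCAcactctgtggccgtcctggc
Fabp6, downstream match: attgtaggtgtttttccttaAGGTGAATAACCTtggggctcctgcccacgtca

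Of 15 bile acid synthesis genes, 3 rose, 6 fell and 6 were not called in high-dose liver, with a median of -0.24. Besides Cyp8b1, the rate-limiting enzyme Cyp7a1 had 0.696 FPKM in high-dose liver and 8.62 FPKM in lean liver and fell by 3.63 (SE 0.884) in the authors' deposited table. In vehicle liver Cyp7a1 stood on the other side of lean, at 2.42, and the direct comparison gave -6.03 for high dose over vehicle in the authors' deposited tables. Cyp7b1 of the alternative pathway and the dehydrogenase Akr1c6 fell, with folds of -1.60 and -1.28 in the authors' deposited table. The rises were those of Akr1d1, the steroid 5-beta-reductase of the pathway, at 1.04, Cyp2c70, which makes muricholic acids in mice, at 0.83, and the racemase Amacr at 0.45 in the authors' deposited table.

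Of 13 genes of bile acid uptake and export, 12 were tested, and 4 rose, all on the export side (Slc51b, Abcb4, Abcb11 and the flippase Atp8b1), and 4 fell, all on the uptake side. Slc10a1, the main sodium-dependent bile acid carrier of hepatocytes, had 21.1 FPKM in high-dose liver and 788 FPKM in lean liver. It fell by 5.22 (SE 0.127) at the high dose, beside -1.86 in vehicle liver, and high dose over vehicle was -3.35, by the authors' deposited tables. Slco1a4 and Slco1b2 also fell, with folds of -1.08 and -0.38 (q = 0.031) in the authors' deposited table.

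Cholesterol synthesis genes lay on both sides of lean at the high dose. Of 19 tested, 5 rose and 4 fell, and 10 had no call, with a median of 0.04, whereas in vehicle liver 16 fell, with a median of -1.54. Over all tested genes 12.2% rose and 15.2% fell at the high dose. In the direct comparison 15 were higher and 1 was lower in high-dose than in vehicle liver. Sqle, squalene epoxidase, had 25.8 FPKM in high-dose liver and 25.2 FPKM in lean liver, a fold of 0.04 (SE 0.118, q = 0.885) beside -3.95 in vehicle liver, in the authors' deposited tables. The mevalonate kinase Mvk rose by 0.81 (q = 0.000662), Idi1 by 0.80 (q = 0.0436), Hmgcs1 by 0.67 and Msmo1 by 0.46 (q = 0.0441) in the authors' deposited table. Idi1 was low in both groups, with 0.952 FPKM in high-dose liver and 0.546 FPKM in lean liver. In the authors' deposited table Sc5d, Ebp and Fdps fell, with folds of -1.08, -0.99 and -0.88, and these 3 were also lower than lean in vehicle liver.

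The pathway is driven by SREBP2 through a sterol response element. Of the 14 listed genes with a promoter window, 1 held the letters TCACNCCAC on either strand, as did 1.44% of all genes with a window. It is Hmgcs1, the first committed step, at chr13:119690194-119690242 on the plus strand of GRCm38.p6, shown with the motif in capitals from the RefSeq promoter.
Hmgcs1: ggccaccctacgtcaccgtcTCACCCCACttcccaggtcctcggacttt
Of 8 SREBP2 targets of uptake and sensing, 7 were tested, with 1 higher and 2 lower at the high dose and 0 higher and 5 lower in vehicle liver. The sterol sensor Insig1 and the sterol carrier Stard4 stayed lower, at -1.22 and -0.80 in the authors' deposited table. Among 9 genes of cholesterol efflux and LXR targets, 3 rose and 4 fell. Scarb1, the HDL receptor, rose by 1.40, Abcg1 by 1.31 and the canalicular sterol exporter Abcg5 by 0.81 in the authors' deposited table. Abcg1 and Abcg5 had 1.31 and 0.85 in vehicle liver in the authors' deposited table.

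**Figure D2:**
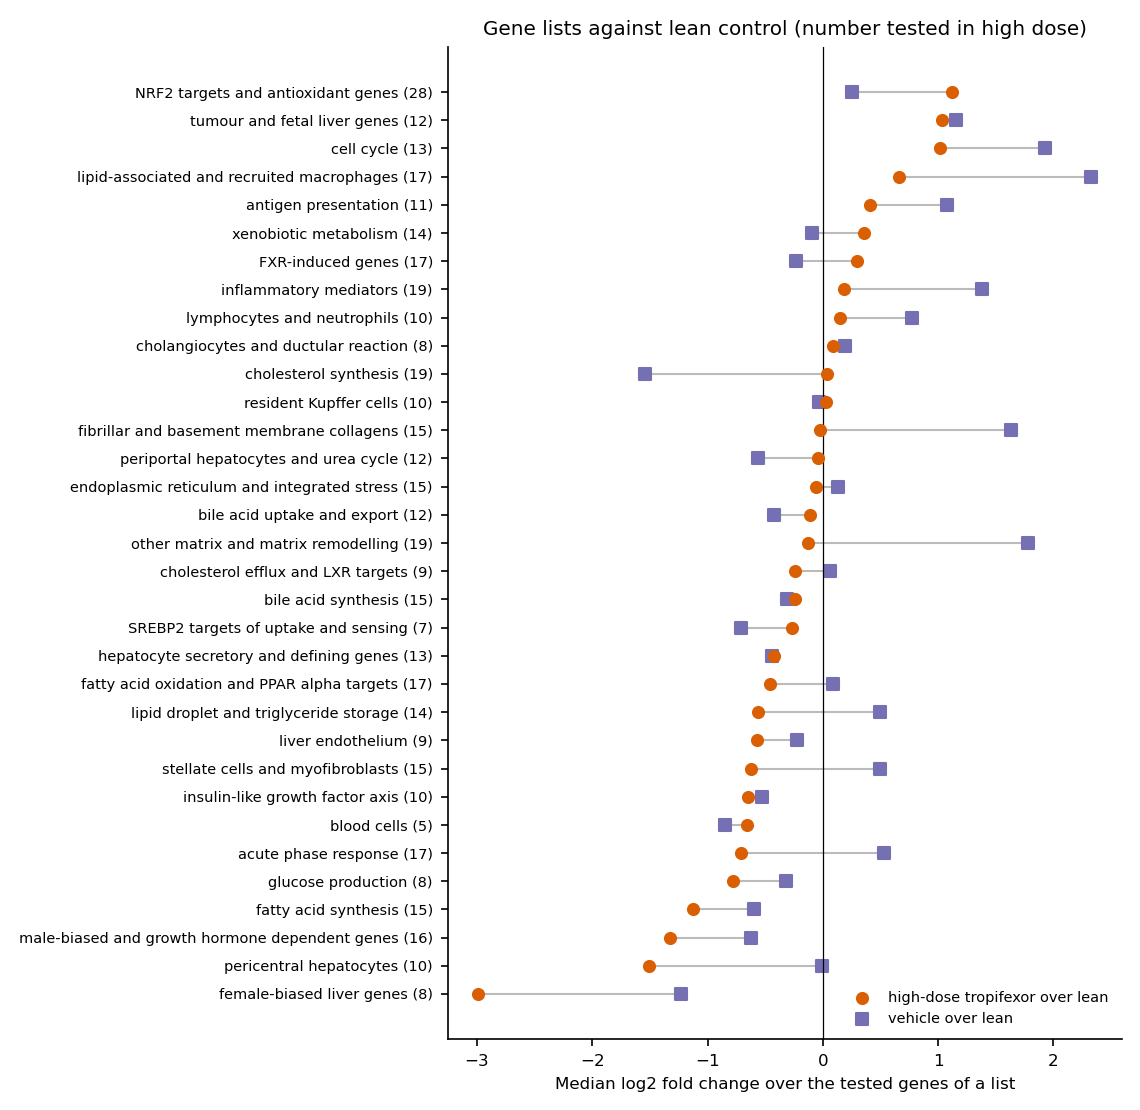
Median log2 fold change over lean control of the tested genes of each list with at least 5 of them, in high-dose liver (circles) and vehicle liver (squares), with the number tested at the high dose in brackets. Cholesterol synthesis lies at 0.04 in high-dose liver and -1.54 in vehicle liver, and collagens at -0.02 and 1.63, while pericentral genes lie at -1.51 and -0.01. The medians of both groups share the lean mice and carry no test.

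Most fatty acid synthesis genes fell. Of 15 tested, 12 fell, 2 rose and 1 was not called at the high dose, with a median of -1.13, and in vehicle liver 6 fell and 2 rose. Scd1, the stearoyl-CoA desaturase, had 587 FPKM in high-dose liver and 2973 FPKM in lean liver, and fell by 2.34 (SE 0.237) in the authors' deposited table, but was higher than lean in vehicle liver, at 0.87. In the authors' deposited table the lipid enzyme Pnpla3 stood at -2.82, Me1, which supplies NADPH, at -2.25, the elongase Elovl6 at -2.0 and the regulator Srebf1 at -1.20. In the authors' deposited table Fasn, the fatty acid synthase, stood at 0.12 (SE 0.316, q = 0.858) with no call. The rises were Thrsp at 1.01 and Scd2, the desaturase of other tissues, at 0.73.

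Of 15 lipid droplet genes 14 were tested, and 3 rose and 5 fell at the high dose, while in vehicle liver 7 of 13 rose and 1 fell. Cidea, a droplet fusion protein, had 0.0571 FPKM in high-dose liver and 0.880 FPKM in lean liver. Its fold was -3.95 (SE 0.855, q = 0.0363) at the high dose, 4.50 in vehicle liver and -8.43 for high dose over vehicle in the authors' deposited tables, and on a log2(FPKM + 1) scale the fold over lean was -0.83. The related Cidec had 5.53 FPKM in high-dose liver and 3.35 FPKM in lean liver and stayed higher, at 0.72 (q = 0.00571) beside 4.46 in vehicle liver in the authors' deposited tables. The lipase inhibitor G0s2, the droplet coat protein Plin4 and the triglyceride synthase Dgat2 fell, with folds of -1.73 (q = 0.0369), -1.31 (q = 0.00332) and -1.21 in the authors' deposited table, and the coat protein Plin5 rose by 1.07. Pparg, the adipogenic receptor, stood at 0.00 (q = 0.997) in high-dose liver and 1.25 in vehicle liver in the authors' deposited tables.

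Of 17 genes of fatty acid oxidation and PPAR alpha targets, 10 fell, 3 rose and 4 were not called at the high dose, with a median of -0.46; in vehicle liver 2 fell and 2 rose, and in the direct comparison 9 were lower and 2 higher in high-dose liver. Ppara itself fell by 1.96 (SE 0.258), and the microsomal hydroxylases Cyp4a14 and Cyp4a10 and the thioesterase Acot1 had folds of -4.81, -4.41 and -2.48 in the authors' deposited table. The hormone gene Fgf21 went the other way, with 32.6 FPKM in high-dose liver and 6.47 FPKM in lean liver, a rise of 2.33 (SE 0.142), and the kinase gene Pdk4 rose by 2.35 in the authors' deposited table. Of 8 genes of glucose production and use, 6 fell and 2 rose, among them glucose-6-phosphatase G6pc at -1.71 and the aminotransferase Got1 at -1.62 in the authors' deposited table. The coactivator Ppargc1a fell by 1.34 in the authors' deposited table, while the carboxylase Pcx rose by 0.71 and the transporter Slc37a4 by 0.37 (q = 0.00332).

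Of 15 collagen genes, 3 rose, 1 fell and 11 were not called at the high dose, with a median of -0.02, beside 13 higher in vehicle liver, with a median of 1.63. Compared directly, 12 were lower in high-dose than in vehicle liver. Over all tested genes 12.2% rose and 15.2% fell at the high dose, and 12.1% rose in vehicle liver. Col1a1, which encodes a chain of type I collagen, had 1.93 FPKM in high-dose liver and 1.41 FPKM in lean liver. It rose by 0.45 (SE 0.204, q = 0.0211) at the high dose and by 3.16 in vehicle liver in the authors' deposited tables. Col3a1, of type III collagen, had 12.8 FPKM in high-dose liver and 14.6 FPKM in lean liver, a fold of -0.19 (SE 0.248, q = 0.678), with no call, in the authors' deposited table. The exception was Col12a1, a collagen that associates with fibrils, with 4.62 FPKM in high-dose liver and 0.518 FPKM in lean liver. It rose by 3.16 (SE 0.306) at the high dose and by 1.84 in vehicle liver, and was higher by 1.33 in high-dose than in vehicle liver, in the authors' deposited tables. Col6a1 rose by 0.32 (q = 0.0406), and Col18a1, of basement membranes, fell by 0.51 (q = 0.00124) in the authors' deposited table.

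Of 22 other matrix genes, 19 were tested at the high dose, with 4 higher, 4 lower and 11 not called, while 18 of 22 rose in vehicle liver. Directly compared, 19 were lower and 0 higher in high-dose than in vehicle liver. The shares over all tested genes were 12.2% higher and 15.2% lower at the high dose, and 12.1% higher in vehicle liver. Spp1, osteopontin, had 99.1 FPKM in high-dose liver and 31.2 FPKM in lean liver, and stayed higher by 1.67 (SE 0.116), with 2.35 in vehicle liver, in the authors' deposited tables. The macrophage elastase Mmp12 at 1.49, the crosslinking Loxl1 at 0.53 (q = 0.0264) and the proteoglycan gene Lum also stayed higher in the authors' deposited table. The stromal protein tenascin C, Tnc, fell by 1.43 at the high dose but was higher than lean by 2.15 in vehicle liver in the authors' deposited tables. Lox, which cross-links collagen, was not tested at the high dose, with 0.110 FPKM in high-dose liver and 0.0741 FPKM in lean liver. Timp1, an inhibitor of matrix proteases, had a fold of 1.33 (SE 1.54, q = 0.657) in the authors' deposited table, with an SE larger than the fold.

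Of 15 tested markers of stellate cells and of the myofibroblasts they turn into, 6 fell, 0 rose and 9 were not called at the high dose, with a median of -0.62, while in vehicle liver 7 rose and 0 fell. Acta2, smooth muscle actin, had 1.52 FPKM in high-dose liver and 4.37 FPKM in lean liver and fell by 1.52 (SE 0.174), beside a fold of -0.05 with no call in vehicle liver, in the authors' deposited tables. The neurotrophin receptor Ngfr, the myosin light chain Myl9 and the pericyte marker Rgs5 fell, with folds of -1.37, -1.29 and -0.88 in the authors' deposited table. Vim, an intermediate filament, stood at 0.17 (q = 0.557) in the authors' deposited table. The summed FPKM of the list was 73.0 in high-dose liver and 97.0 in lean liver, and its part in the levels of the matrix genes was not tested.

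Macrophage genes were lower than in vehicle liver, yet many remained above lean. Among 17 genes of lipid-associated and recruited macrophages, 10 rose, 1 fell and 6 were not called at the high dose, with a median of 0.66, and all 10 had also risen in vehicle liver, where 15 rose with a median of 2.33. The direct comparison had 15 lower and 0 higher in high-dose liver. Gpnmb, a glycoprotein of lipid-laden macrophages, had 3.42 FPKM in high-dose liver and 0.263 FPKM in lean liver. It stood at 3.70 (SE 0.549) at the high dose and 6.10 in vehicle liver in the authors' deposited tables. The lipid receptor Trem2 had 3.40 FPKM in high-dose liver and 0.971 FPKM in lean liver, a fold of 1.81 (SE 0.290) beside 3.55 in vehicle liver, in the authors' deposited tables. On a log2(FPKM + 1) scale the high-dose folds of Gpnmb and Trem2 were 1.81 and 1.16. The lipase Lpl rose by 1.73, and the pan-macrophage marker Adgre1 by 0.33 (q = 0.0303), in the authors' deposited table. Fabp5, a fatty acid binding protein also made by other cells, was the gene that fell, at -3.04 in the authors' deposited table.

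Of 10 markers of resident Kupffer cells, 1 rose, 4 fell and 5 were not called at the high dose, with a median of 0.03. Over all tested genes 12.2% rose and 15.2% fell. Clec4f, the lectin that defines these cells in mice, had 47.6 FPKM in high-dose liver and 47.8 FPKM in lean liver, a fold of -0.01 (SE 0.166, q = 0.986) in the authors' deposited table. The phosphatidylserine receptor Timd4 and the scavenger receptor Cd163 stayed lower, at -0.63 (q = 0.000662) and -2.14, beside -0.86 and -2.28 in vehicle liver, in the authors' deposited tables. Neither was called between high-dose and vehicle liver.

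Of 19 tested inflammatory mediators, 2 rose, 1 fell and 16 were not called at the high dose, whereas 16 rose in vehicle liver. The medians were 0.18 in high-dose and 1.38 in vehicle liver. Over all tested genes 12.2% rose and 15.2% fell at the high dose, and 12.1% rose in vehicle liver. Ccl2, which attracts monocytes, had 2.70 FPKM in high-dose liver and 1.96 FPKM in lean liver, a fold of 0.46 (SE 0.241, q = 0.161) beside 2.05 in vehicle liver, in the authors' deposited tables. The T cell chemokine Ccl5 and the adhesion molecule Icam1 stayed higher in the authors' deposited table, by 1.06 and 0.80. The neutrophil chemokine Cxcl1 fell by 1.59, beside 0.45 in vehicle liver, in the authors' deposited tables.

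Lymphocyte and neutrophil markers numbered 14, with 10 tested at the high dose; Cuffdiff, as run by the authors, called 0 of them and gave 0 an unadjusted p under 0.05. In vehicle liver 6 of 12 tested rose. Their summed level was low, 13.3 FPKM in high-dose liver and 11.3 FPKM in lean liver, which limits what the test could find. Of 11 tested genes of antigen presentation, 4 rose, 0 fell and 7 were not called; the class II genes H2-Aa, H2-Eb1 and H2-Ab1 and their chaperone Cd74 stayed higher in the authors' deposited table, by 0.61, 0.54, 0.41 (q = 0.00729) and 0.41 (q = 0.00205).

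Acute phase proteins are secreted by hepatocytes in inflammation. The list of the acute phase response used here also holds genes of proteins that are not secreted in this way, such as the metallothioneins. Of its 17 tested genes, 10 fell, 3 rose and 4 were not called at the high dose, with a median of -0.71. In vehicle liver 9 rose and 2 fell. Saa1, serum amyloid A, had 27.5 FPKM in high-dose liver and 98.7 FPKM in lean liver and fell by 1.84 (SE 0.126), but was higher than lean by 2.54 in vehicle liver, in the authors' deposited tables. The metallothioneins Mt1 and Mt2, which bind zinc, and the pentraxin Apcs fell, with folds of -3.22, -3.14 and -2.01 in the authors' deposited table. Orm3, an orosomucoid, rose by 4.01, Lcn2, lipocalin 2, by 1.29 and the lipopolysaccharide binding protein Lbp by 0.75 in the authors' deposited table. Lcn2 had 48.6 FPKM in high-dose liver and 19.8 FPKM in lean liver, with a vehicle fold of 3.39.

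Antioxidant genes had the highest median fold of the lists. Of 29 NRF2 targets and antioxidant genes, 28 were tested, and 17 rose, 5 fell and 6 were not called at the high dose, with a median of 1.12, beside 12 higher and 2 lower in vehicle liver, with a median of 0.25. High-dose liver had 15 higher and 2 lower than vehicle liver in the direct comparison. Gstm3, a glutathione transferase, had 1698 FPKM in high-dose liver and 16.3 FPKM in lean liver, a rise of 6.70 (SE 0.130), beside 2.73 in vehicle liver, in the authors' deposited tables. Gstm1, the most abundant of the family here, had 11767 FPKM in high-dose liver and 1565 FPKM in lean liver, a rise of 2.91 in the authors' deposited table. The quinone reductase Nqo1, a standard NRF2 target, had 24.2 FPKM in high-dose liver and 4.29 FPKM in lean liver, a rise of 2.49 (SE 0.131) in the authors' deposited table. The carbonyl reductase Cbr3 rose by 4.17, sulfiredoxin Srxn1 by 1.69 and thioredoxin reductase Txnrd1 by 1.25 in the authors' deposited table. Others on the list fell, among them heme oxygenase Hmox1, superoxide dismutase Sod1 and peroxiredoxin Prdx1, with folds of -0.89, -0.51 and -0.48 (q = 0.00124) in the authors' deposited table. Gpx2, the gut glutathione peroxidase, had a fold of 7.79 (SE 0.932) with no call (q = 0.161) in the authors' deposited table.

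**Figure D3:**
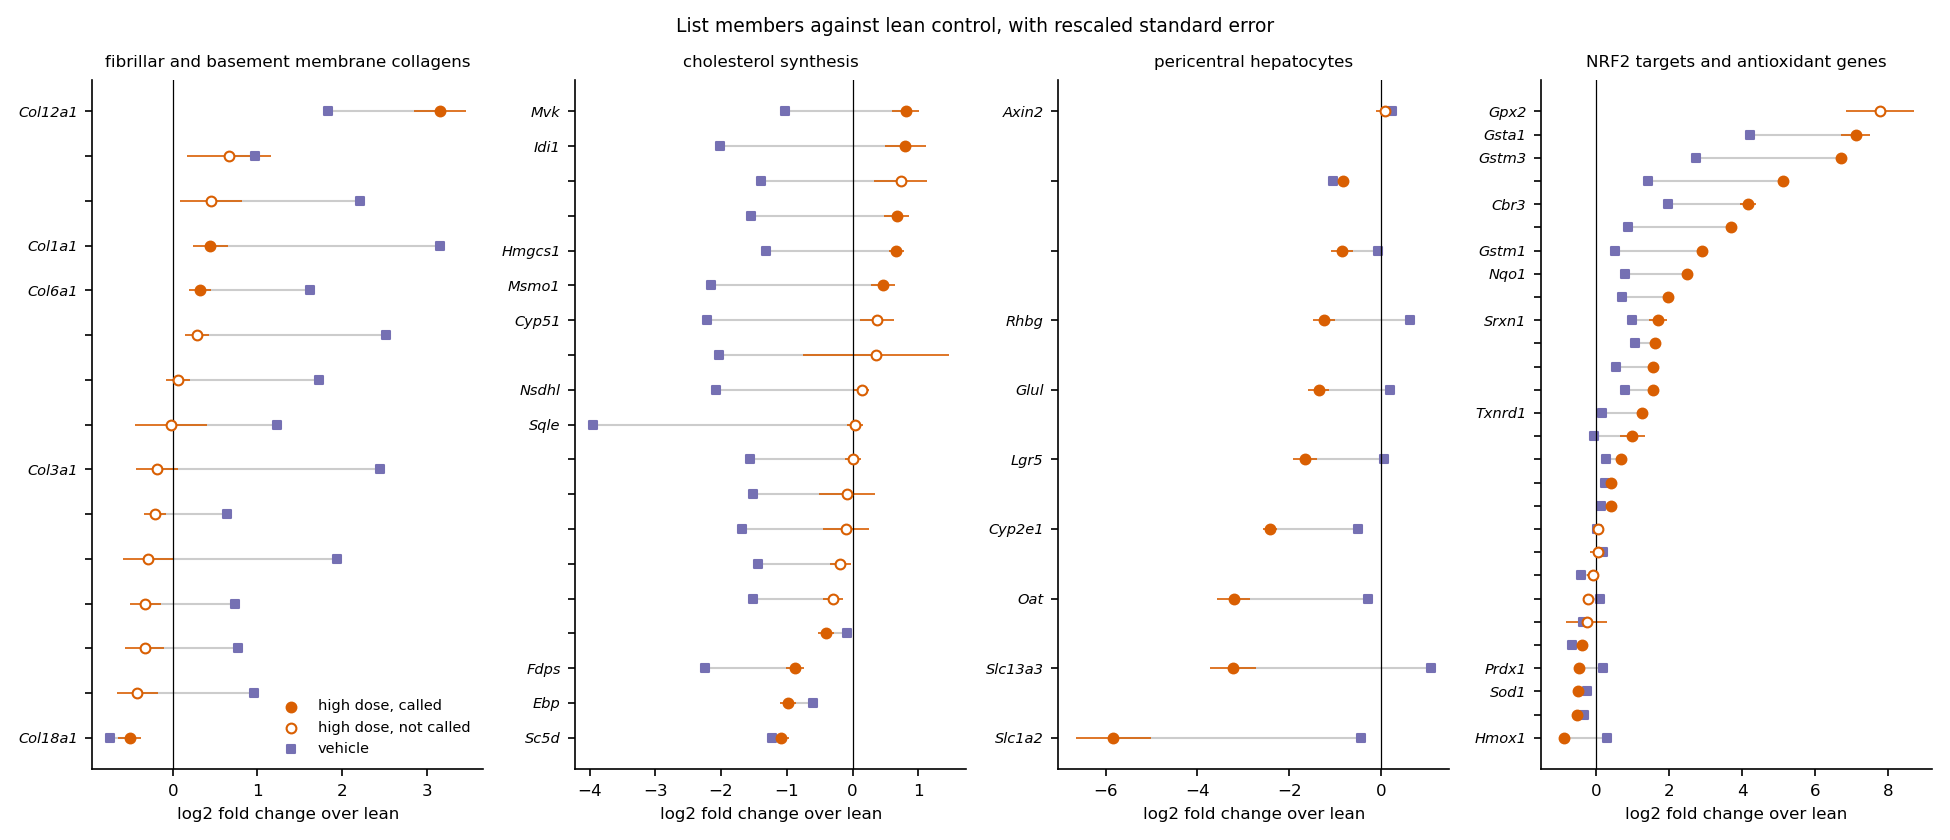
Log2 fold change over lean control for each tested gene of 4 lists in high-dose liver (circles, filled where called, bars 1 rescaled SE) and vehicle liver (squares), 1 row per gene, with names for the genes described in the text. Collagens and cholesterol synthesis genes of high-dose liver lie on both sides of 0, with Col12a1 at 3.16, whereas most pericentral genes lie below 0 and most antioxidant genes above 0 in high-dose liver.

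Xenobiotic metabolism was split. Of 18 genes 14 were tested, and 8 rose and 4 fell at the high dose, with 6 higher and 5 lower in vehicle liver. Sult1e1, the estrogen sulfotransferase, had 12.2 FPKM in high-dose liver and 0.300 FPKM in lean liver, a rise of 5.35 (SE 0.278), and 3.35 on a log2(FPKM + 1) scale. It had 5.16 in vehicle liver, and high dose over vehicle was 0.20 with no call, in the authors' deposited tables. Cyp2c29 fell by 6.32 and Cyp2c55 rose by 2.22 in the authors' deposited table. Nr1i2, the xenobiotic receptor PXR, rose by 1.75, its target Cyp3a11 by 1.39 and the electron donor Por by 1.55 in the authors' deposited table. Cyp3a11 had 1.91 in vehicle liver, and high dose over vehicle was -0.50 (q = 0.0153) in the authors' deposited tables. Cyp2b10, a target of the receptor CAR, was not tested, with 0.0373 FPKM in high-dose liver and 0.0864 FPKM in lean liver.

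Most male-biased and growth hormone dependent genes fell. Of 16 tested, 11 fell, 2 rose and 3 were not called at the high dose, with a median of -1.33, and in vehicle liver 10 fell and 2 rose, with a median of -0.62. Besides Slco1a1, Hsd3b5 and Serpina1e, the urinary protein Mup7 and Ghr, the growth hormone receptor, fell, with folds of -5.86 and -1.47 in the authors' deposited table. Mup20, which codes for the male pheromone darcin, went up by 1.26 and Cyp4a12b by 3.20 in the authors' deposited table. Female-biased genes showed no single direction. Of 15 on that list 8 were tested, and 2 rose, 4 fell and 2 were not called at the high dose. Fmo2 rose by 1.99, while Cyp17a1, Hao2, Abcd2 and Cux2 fell, with folds of -4.48, -4.35 (q = 0.000662), -3.82 and -2.17 in the authors' deposited table. Hao2 and Cux2 were low in both groups, with 0.0329 and 0.0859 FPKM in high-dose liver and 0.671 and 0.385 FPKM in lean liver.

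Genes of pericentral hepatocytes, which line the outflow of the lobule, fell together. Of 10 tested, 9 fell and 1 was not called at the high dose, with a median of -1.51, while 2 fell and 2 rose in vehicle liver, with a median of -0.01. Against vehicle liver, 8 were lower and 0 higher in high-dose liver. Glul, the glutamine synthetase of the last cell layer, had 122 FPKM in high-dose liver and 312 FPKM in lean liver and fell by 1.36 (SE 0.226) in the authors' deposited table. The glutamate carrier Slc1a2 had 0.653 FPKM in high-dose liver and 37.1 FPKM in lean liver and fell by 5.83 (SE 0.818) in the authors' deposited table. Cyp2e1, the ethanol-inducible cytochrome, had 812 FPKM in high-dose liver and 4358 FPKM in lean liver and fell by 2.42 (SE 0.153) in the authors' deposited table. The aminotransferase Oat, the dicarboxylate carrier Slc13a3, the Wnt pathway receptor Lgr5 and the ammonium carrier Rhbg fell. Their folds were -3.21, -3.22, -1.67 and -1.24 in the authors' deposited table. In the authors' deposited table Axin2, a general target of Wnt signalling, stood at 0.09 (SE 0.195, q = 0.791) with no call. The summed FPKM of the pericentral list was 1083 in high-dose liver and 5308 in lean liver.

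Of 12 genes of periportal hepatocytes and the urea cycle, 4 rose, 4 fell and 4 were not called at the high dose, with a median of -0.04, while 8 fell in vehicle liver. Against vehicle liver, 6 were higher and 1 lower in high-dose liver. Ass1, which makes argininosuccinate, had 767 FPKM in high-dose liver and 535 FPKM in lean liver and rose by 0.52 (SE 0.128), beside -0.79 in vehicle liver, in the authors' deposited tables. The histidine lyase Hal rose by 0.73 and the droplet enzyme Hsd17b13 by 0.63, while the amino acid carrier Slc38a4 and arginase Arg1 fell, with folds of -1.47 and -0.74 in the authors' deposited table.

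The tissue label was checked on 13 genes of hepatocyte secretion and identity, all abundant in both groups. At the high dose 7 fell, 2 rose and 4 were not called, with a median of -0.42, and their FPKM summed to 81135 in high-dose liver and 109808 in lean liver. Albumin, Alb, stood at -0.78 (SE 0.479, q = 0.168), and the thyroxine carrier Ttr fell by 1.93 in the authors' deposited table. The apolipoprotein gene Apoa2 had 10524 FPKM in high-dose liver and 18463 FPKM in lean liver and fell by 0.81, and Serpina1a fell by 1.04, in the authors' deposited table. Hnf4a, a master regulator of hepatocytes, rose by 0.36 (q = 0.00886) in the authors' deposited table.

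Among markers of other cells, 7 of 9 endothelial genes fell and 0 rose, with a median of -0.57; Stab2, a receptor of sinusoidal endothelium, and the angiopoietin receptor Tek fell, and the authors' deposited table gave them folds of -0.94 and -0.78. Of 5 tested blood cell genes 4 fell, all globins, with folds of -0.76 to -0.62 in the authors' deposited table, and the same 4 had fallen in vehicle liver. Of 8 tested cholangiocyte genes 3 rose and 1 fell; the stem cell marker Prom1 rose by 2.01, Spp1 is also on this list, and the authors' deposited table gave the keratin Krt19, which defines bile duct cells, -0.47 (q = 0.117). Of 8 pancreas genes 5 were near 0 in both groups, and the authors' deposited table gave a fall in the elastase Cela1, at -1.25. Of 2 tested adipose genes, Cfd fell by 1.34 (q = 0.00571) and the other, Fabp4, was not called in the authors' deposited table. What part these markers have in the changes of the other lists was not tested.

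Of 13 tested cell cycle genes, 7 rose, 1 fell and 5 were not called at the high dose, with a median of 1.02, beside 13 of 14 higher in vehicle liver, with a median of 1.93. Against vehicle liver, 10 were lower and 1 higher in high-dose liver. Top2a, a topoisomerase of dividing cells, had 1.41 FPKM in high-dose liver and 0.335 FPKM in lean liver, a rise of 2.07 (SE 0.414), and 0.85 on a log2(FPKM + 1) scale, in the authors' deposited table. The gene higher than in vehicle liver was Ccnd1, cyclin D1, with 75.6 FPKM in high-dose liver and 4.95 FPKM in lean liver. Its fold was 3.93 (SE 0.183) at the high dose and 1.88 in vehicle liver, and 2.07 for high dose over vehicle, in the authors' deposited tables. The FPKM of the list summed to 85.7 in high-dose liver and 12.4 in lean liver. Most of the high-dose sum came from Ccnd1, and the other members were low in both groups, which makes their folds uncertain. Rrm2, a ribonucleotide reductase subunit, was the gene that fell, at -1.83 in the authors' deposited table.

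Set side by side, the vehicle, low, mid and high groups differed in which genes came near lean. All 4 comparisons share the lean mice, so no trend was tested. Col1a1 had folds over lean of 3.16, 1.64, 0.13 and 0.45 in vehicle, low, mid and high groups in the authors' deposited tables. Ccl2 had 2.05, 2.92, 0.43 and 0.46 in the same order in the authors' deposited tables. Sqle stood at -3.95, -0.17, 0.28 and 0.04 in the authors' deposited tables, near lean in all 3 dose groups. Slc51b had 0.87, 6.25, 6.88 and 6.94 in the authors' deposited tables, of similar size at each dose. Several of the displaced genes lay closest to lean at the mid dose among the treated groups. Scd1 had 0.87, -2.91, -0.33 and -2.34, Glul 0.19, -1.67, -0.53 and -1.36, and Cyp7a1 2.42, -1.76, -0.83 and -3.63 in vehicle, low, mid and high groups in the authors' deposited tables. Gstm3 stood at 2.73, 4.6, 4.49 and 6.70 in the authors' deposited tables, with the high group above both other doses.

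**Figure D4:**
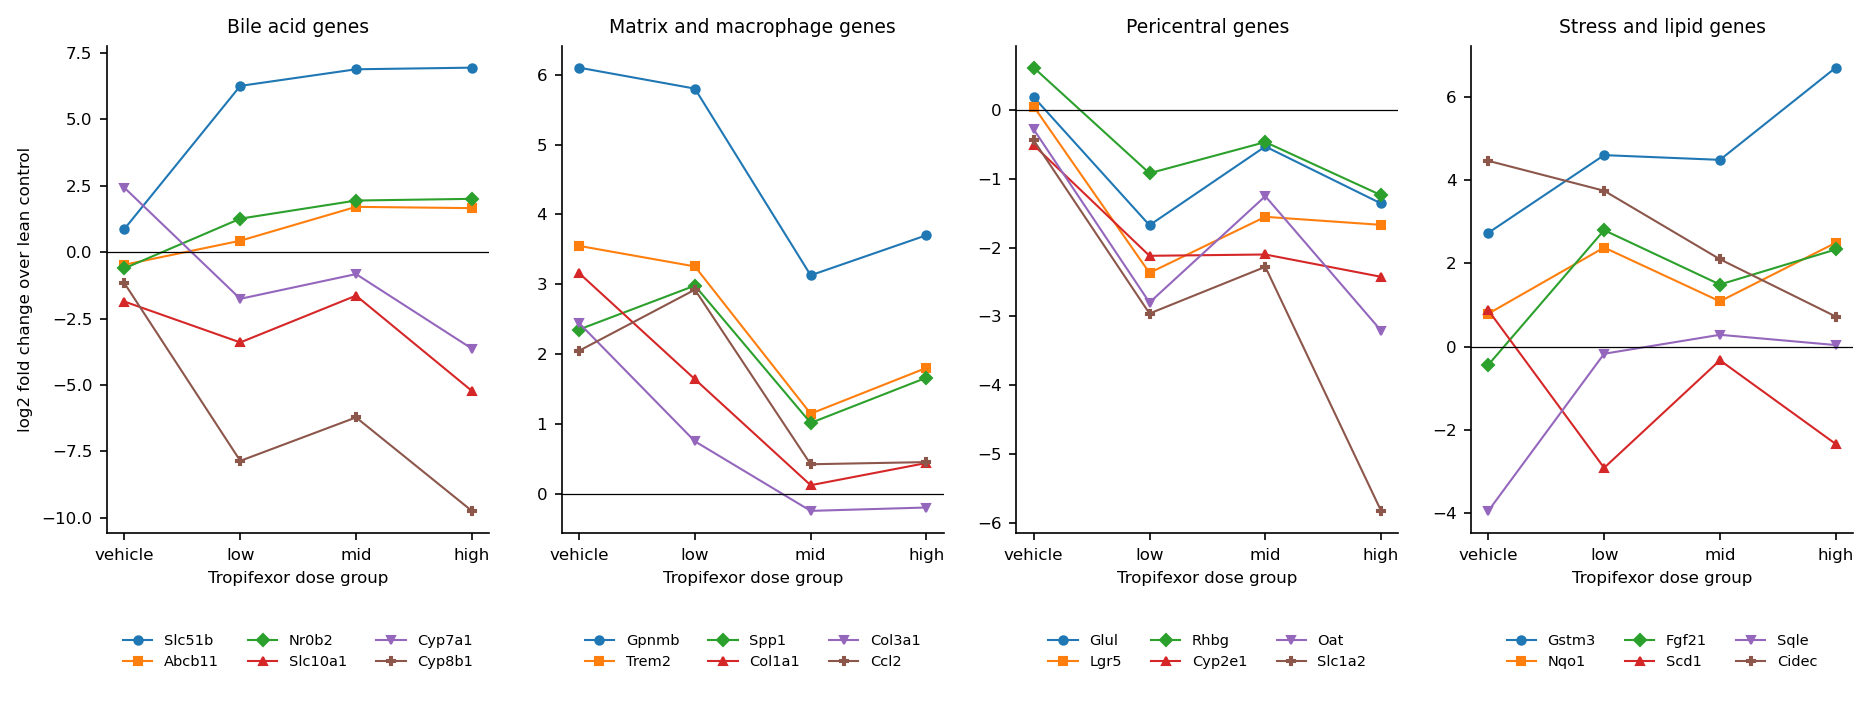
Log2 fold change over lean control (vertical axis) in the vehicle, low, mid and high dose groups (horizontal axis) for 24 genes in 4 panels, 1 line per gene, with the lean level at 0. Col1a1 lies at 0.13 and 0.45 at the mid and high doses, whereas Slc51b is at 6.94 and Cyp8b1 reaches -9.73 and Slc1a2 -5.83 at the high dose. All points share the lean group.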

How the data were processed

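Liver RNA (Trizol) was made into stranded poly(A) libraries, per the labels' protocols. The submitters' processing notes name Cuffdiff, Cuffnorm and Cufflinks 2.2.1, the aligner STAR 2.5.1b, bcl2fastq and the build GRCm38, with no role or order; a strand setting for the counting is not stated there.

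The FPKM values are the authors' deposited group values, 1 per group of 4 animals, per the file headers. The log2 fold change and the test statistic are scores the authors deposited beside them, and the p-value and q-value are the authors' deposited Cuffdiff output. The fold column is treated as a score because FPKM near 0 give values outside a plausible log2 range. The smallest deposited p was 5e-05. Tables were scaled separately: lean FPKM differed by a constant of -0.05 (log2) between the high-dose and vehicle tables.

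A gene was called at status OK and q under 0.05, which equalled the authors' flag in every table used. The SE is the fold divided by its statistic, divided by 2.03, the median ratio of the normal z of the deposited p to the statistic. The calculation was run on data simulated from these same SEs, with p taken as the normal p of the fold over its SE. Recovery of the SE was therefore built in, and the run checks the code alone. Python 3.11.15 and pandas 2.3.3 were used.

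Named genes were the 6 largest called rises and falls with at least 1 FPKM in the higher group, the 5 largest of each class under the same minimum (in the classes called in 1 comparison only, if also called between high-dose and vehicle liver), up to 4 called members of each of 35 lists with the largest folds, and a set of anchors; further list members are given to describe their list. Predicted gene models were counted but not named. Some genes that the rule selects are counted in their lists but not reported here. Of 459 list symbols, 2 (Ccn2 and Tf) matched no gene. Members and lists were chosen with earlier results of these data known. Alternatives were a stricter q, minimum level, minimum fold, recomputed adjustment, pseudocounts, centring and the sum of the vehicle and drug effects.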

Additional observations from a re-analysis of the deposited data

How the results depend on the processing

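With q under 0.01, a minimum of 1 FPKM, or an adjustment recomputed over genes at that level, the counts stayed within 1.5 times those reported, except genes higher in both high-dose and vehicle liver, which numbered 449 at q under 0.01, against 676. With an absolute log2 fold of at least 1, the authors' calls numbered 805 higher and 792 lower in high-dose liver than in lean liver; 250 were higher and 131 lower in both high-dose and vehicle liver, and 447 were higher and 600 lower in high-dose liver only. Of 34 anchor genes tested, 12 moved by more than 1 SE on a log2(FPKM + 1) scale and 3 on a log2(FPKM + 0.1) scale, and 0 when centred on the median fold of -0.04 or computed through vehicle. No called anchor changed sign; Clec4f, which was not called, stood at 0.03 when centred and 0.01 through vehicle, against -0.01.

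No paired analysis was possible because the tables hold no values per animal. No replicate was left out for the same reason. Depth per library is unknown.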

Other observations

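Several genes of fetal liver and liver tumours stayed above lean in high-dose liver. Of 12 such genes tested, 7 rose, 1 fell and 4 were not called, with a median of 1.03 beside 1.16 in vehicle liver. Spink1 is described above. The lymphocyte antigen gene Ly6d had 119 FPKM in high-dose liver and 5.03 FPKM in lean liver, a rise of 4.57 (SE 0.157) beside 4.25 in vehicle liver, in the authors' deposited tables. H19, an imprinted long RNA of fetal liver, had 6.81 FPKM in high-dose liver and 0.301 FPKM in lean liver, a rise of 4.50 (SE 0.414) beside 2.32 in vehicle liver, in the authors' deposited tables. The fetal marker Afp was not called, at -0.19 (SE 0.264, q = 0.676), and the kinase gene Plk3 fell by 1.48 in the authors' deposited table. In the insulin-like growth factor axis, 5 of 10 genes fell and 2 rose. Igfbp1 had 3.41 FPKM in high-dose liver and 31.3 FPKM in lean liver and fell by 3.19 (SE 0.150), while Igfbp2 had 544 FPKM in high-dose liver and 259 FPKM in lean liver and rose by 1.07 (SE 0.116), in the authors' deposited table. The authors' deposited table gave Igf1 itself -0.43, with no call. Of 15 genes of endoplasmic reticulum and integrated stress, 5 rose and 2 fell; the transcription factor Atf3 had 14.7 FPKM in high-dose liver and 1.48 FPKM in lean liver, a rise of 3.31 (SE 0.202), and Asns, asparagine synthetase, rose by 1.27 (q = 0.00258) in the authors' deposited table, while the chaperone Hspa5 was not called at -0.25.

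Some genes were listed at 0 in lean liver and called in high-dose liver, so that no fold can be given; 24 called genes had a lean value near 0 and 5 a high-dose value near 0. Apart from Fabp6, Krt20, a keratin of intestinal epithelium, was listed at 0.928 FPKM, the signalling protein gene Nell1 at 0.823 FPKM and the kidney transcription factor gene Pax2 at 0.752 FPKM in high-dose liver, in the authors' deposited table. Krt20 and Pax2 were also called higher in high-dose than in vehicle liver by the authors' deposited table.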
